A study of Mus musculus with 17 samples.

Results

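The Rbms1 locus on mouse chromosome 2 was examined for binding of WT1, a DNA-binding protein of the zinc-finger class on which podocyte identity depends. Its members were all peaks whose summit lay between 60550000 and 60850000 in the mm9 genome, a 300 kb interval that holds Rbms1 (about 60.59 to 60.80 Mb) with flanks. There were 75 such peaks among the 107761 of the 5 deposited lists. Podocytes gave 14 with PBS, 32 at day 9 and 5 at day 14, and glomeruli gave 14 with PBS and 10 with ADR. The members were chosen by measured peak counts: the interval was selected because its 60.7 to 60.8 Mb window held many more peaks at day 9 than in PBS or day 14 podocytes. Podocyte counts are therefore a description of how the locus was chosen and carry no test.

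WT1 was measured by chromatin immunoprecipitation and sequencing (ChIP-seq), in which a peak is a stretch where precipitated fragments pile up over background. Podocytes, which wrap the capillaries of the kidney filter, were injured with adriamycin (ADR), a drug toxic to them, and control animals received phosphate-buffered saline (PBS). Purified podocytes came from mice with the mTmG fluorescent reporter, in which a Cre active in podocytes marks the cells, with 3 libraries for PBS (no day given), 2 for day 9 of ADR injury and 2 for day 14. Isolated glomeruli, which hold mesangial and endothelial cells besides podocytes, came from BALB/cJ mice with 4 PBS and 4 ADR libraries, again with no day given. All animals were 7 to 8 weeks old and are labelled wildtype. A single peak list stood for each group, so differences between groups carry no replicate error and were not tested. Sequencing depth was not known from the peak lists. In glomeruli, fewer podocytes and less WT1 on the chromatin of each podocyte cannot be told apart, and the identity of the purified cells could not be checked on markers, since peak lists hold no expression.

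Rbms1 encodes an RNA-binding protein with RNA recognition motifs, first described as a single-strand binding protein of the MYC gene region (its older name MSSP-1 comes from there). Proteins of this family bind AU-rich single-stranded sequence and act on the fate of messenger RNAs. In the RefSeq order of protein-coding genes, Rbms1 lies between Itgb6, an integrin subunit, and Tank, an adaptor of NF-κB signalling. Next after Itgb6 is Pla2r1, a receptor that is a target antigen in membranous nephropathy. RefSeq (GRCm38) places Rbms1 on the minus strand, so its 5′ end is the high-coordinate end of the interval and the 60.7 to 60.8 Mb window is the 5′ part of the gene.

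The promoter table lists starts of Rbms1 81.8 kb apart within GRCm38. Positions were not converted between builds, but distances within each build can be set side by side. In mm9, the broad peak near 60.80 Mb and the peak near 60.72 Mb had summits 81.4 kb apart in PBS podocytes, 81.4 kb at day 9 and 81.3 kb in PBS glomeruli. At day 14, where the broad peak was called as a pair of peaks, the distances were 81.4 and 82.4 kb. That these peaks lie on the starts was not tested on an mm9 genome. The 250 bases upstream of each start are shown because these are the sites that the distances point to, from RefSeq, GRCm38, minus strand, 5′ to 3′, with CpG dinucleotides in capitals.
First start, chr2:60963205-60963454: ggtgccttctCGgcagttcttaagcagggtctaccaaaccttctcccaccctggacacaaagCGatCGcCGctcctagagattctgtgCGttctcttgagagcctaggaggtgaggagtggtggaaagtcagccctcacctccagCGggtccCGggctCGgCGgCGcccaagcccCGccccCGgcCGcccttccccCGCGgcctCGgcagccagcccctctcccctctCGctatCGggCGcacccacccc
Internal start, chr2:60881439-60881688: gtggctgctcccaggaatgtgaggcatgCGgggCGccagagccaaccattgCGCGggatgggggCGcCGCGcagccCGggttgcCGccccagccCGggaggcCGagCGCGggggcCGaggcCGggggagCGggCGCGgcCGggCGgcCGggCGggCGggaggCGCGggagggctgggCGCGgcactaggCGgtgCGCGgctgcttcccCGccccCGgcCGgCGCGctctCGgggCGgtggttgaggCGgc
The first held 19 CpG and the internal one 38, against a median of 6 in 32851 upstream windows of the table, of which 19.7% and 1.88% held as many. The merged peak regions near 60.72 and 60.80 Mb were 1038 and 1773 bp wide, and their sequences were not searched. The motif search covered the upstream windows only, so it does not tell whether the peaks hold a motif. Neither window held any of the 6 motifs searched on both strands. These were the WT1-type motifs GCGTGGGAG (in 0.405% of all upstream windows), GCGGGGGCG (2.57%) and GGAGGGAGG (3.36%), the AP-1 motif TGANTCA (6.75%), the GATA motif GATAAG (6.55%) and the forkhead motif TGTTTAC (3.17%), none of which is part of another.

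At day 9, the Rbms1 locus held strong WT1 sites that were also present in PBS podocytes, and 19 further peaks that were mostly weak. As deposited, the 300 kb interval held 14, 32 and 5 peaks in PBS, day 9 and day 14 podocytes, where an average stretch of that length held 2.66, 3.64 and 0.762 peaks. The 60.7 to 60.8 Mb window held 9, 22 and 2. Only 2 of the 10640 windows of 100 kb with a day 9 peak (0.0188%) held 22 or more, this one included. Of the 12174 windows with a peak in any list, 2 (0.0164%), this one included, had a day 9 count at least 13 above the PBS count. Only this window (1 of the 12174, 0.00821%) had a day 9 count at least 20 above that of day 14. Both differences led to the choice of this locus. The day 14 list was also far shorter, with 6694 peaks against 31949 at day 9. Peaks covered 2.68%, 5.23% and 0.770% of the interval in the same order, against 0.470%, 0.610% and 0.104% of the genome span.

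**Figure D1:**
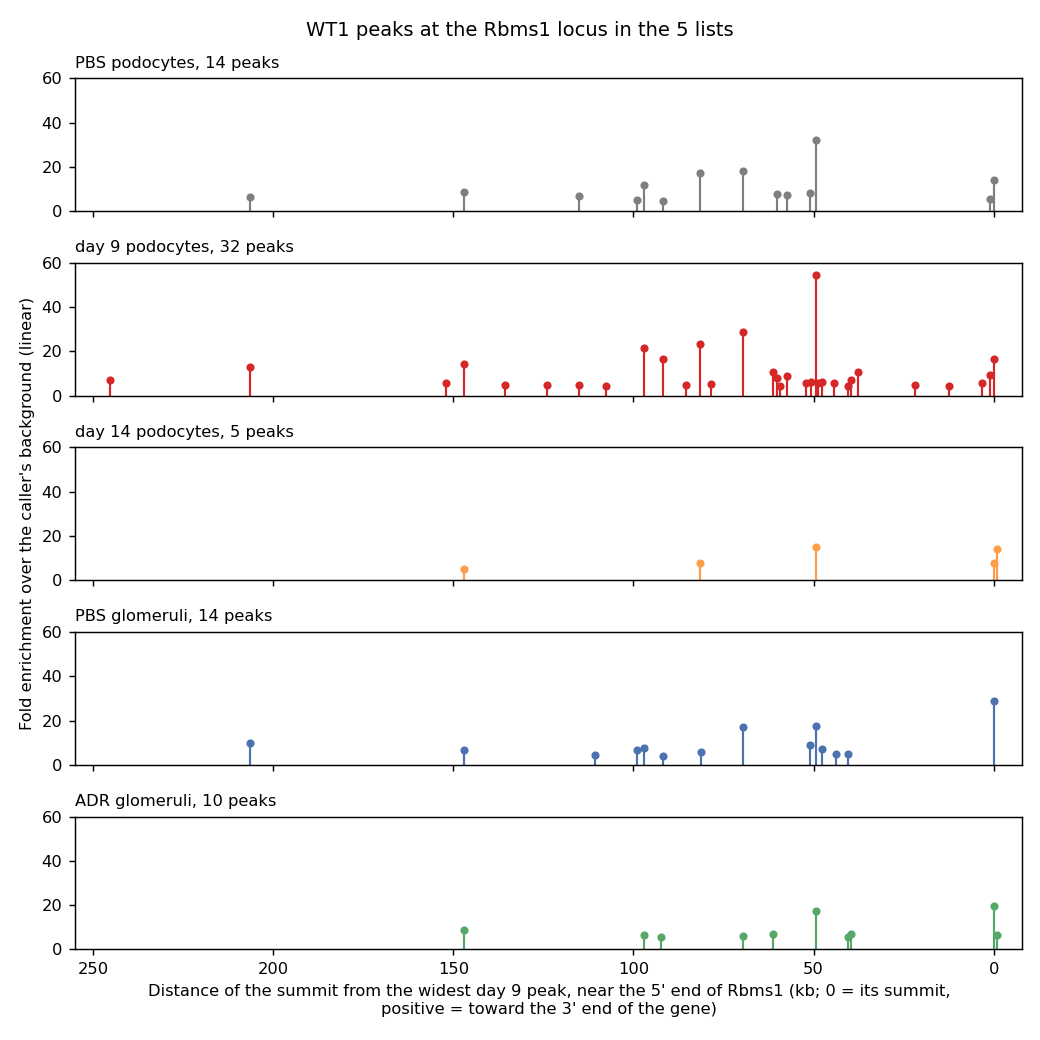
Fold enrichment of every WT1 peak at the Rbms1 locus (y axis, linear, 1 panel per list) against the distance of its summit in kb from the summit of the widest day 9 peak (x axis, positive toward the 3′ end of the gene). Each stem is 1 peak; heights rank peaks within a panel and are not comparable between panels. The strongest podocyte peak stands 49.4 kb from the zero point in all 3 podocyte panels, and the 30 kb from 35 to 65 kb hold 13 peaks at day 9 against 4 in PBS podocytes.

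Much of the difference in number was made up of peaks with less extreme p-values. When the day 9 list was cut by caller p-value to the 23402 peaks of the PBS podocyte list, an alternative added after the counts were seen, 16 of the 32 day 9 peaks remained at the locus against 14 in PBS podocytes, and 11 against 9 in the 100 kb window. With a −log10 q of at least 10 in every list, the locus held 16 peaks at day 9 and 11 in PBS podocytes, and the window 11 and 7. With every list cut to the 6694 peaks of the day 14 list, podocytes had 4 peaks at the locus with PBS, 5 at day 9 and 5 at day 14, and glomeruli had 3 with PBS and 3 with ADR. At that length the day 9 peaks were the sites near 60.70, 60.72, 60.73, 60.75 and 60.80 Mb, of which the last 4 were also the 4 of PBS podocytes.

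**Figure D2:**
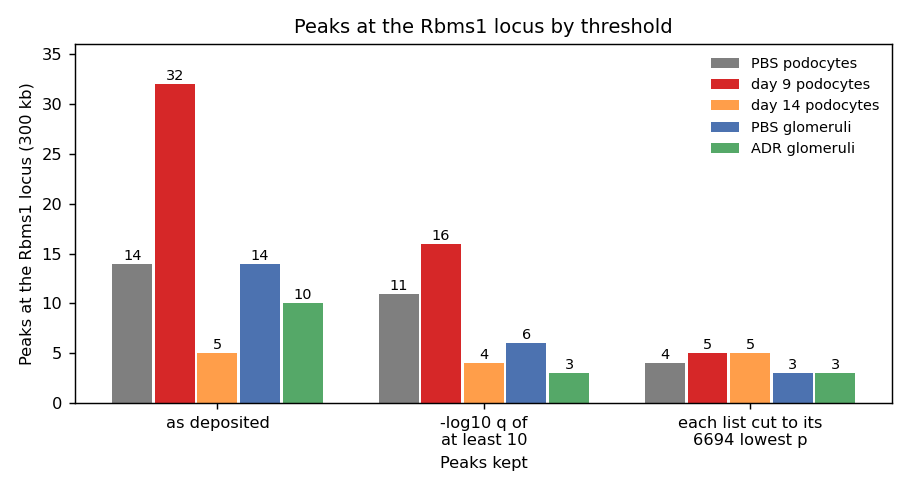
Number of WT1 peaks at the Rbms1 locus (y axis, bars from 0) in each list as deposited, at a −log10 q of at least 10, and with each list cut to its 6694 peaks of lowest p. Day 9 stands at 32 against 14 in PBS podocytes as deposited, and at 5 against 4 in lists of equal length.

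The strongest podocyte site lay inside the gene interval, 49.4 kb from the broad 5′ peak. It was called at 60751264 to 60751920 in PBS podocytes (32.2-fold enrichment, the authors' value over the caller's background), at 60751172 to 60751985 at day 9 (54.4-fold) and at 60751330 to 60751844 at day 14 (14.96-fold). In PBS glomeruli the peak at 60751293 to 60751875 had 17.3-fold enrichment and in ADR glomeruli that at 60751425 to 60751756 had 17.3-fold. It was the peak of highest fold at the locus in each podocyte list and next to highest in both glomerular lists. Fold values rank peaks only within a list, and here the site stood at the percentiles 97.6, 98.8, 92.4, 90.2 and 92.3 of the respective lists. Its summits in the 5 lists lay within 11 bp.

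The broad 5′ peak was likewise present in all 5 lists, in 1 piece in PBS podocytes (60800565 to 60802337, 13.97-fold), at day 9 (60800595 to 60802267, 16.7-fold) and in PBS glomeruli (60800709 to 60802212, 28.7-fold). It was called as a pair of peaks at day 14 (60800761 to 60801282, 7.69-fold, and 60801671 to 60802191, 14.2-fold) and in ADR glomeruli (60800761 to 60801408, 19.5-fold, and 60801649 to 60802118, 6.38-fold). The split adds 1 to the day 14 and ADR glomerular counts. By fold it led both glomerular lists at this locus. In PBS podocytes it had the lowest p-value of the locus (−log10 p of 162) although only the 4th highest fold, so that fold and p order these peaks differently.

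The site near 60.72 Mb, whose distance from the broad peak is near that between the RefSeq starts, was called at 60719020 to 60719989 in PBS podocytes (17.2-fold), 60719117 to 60720057 at day 9 (23.5-fold), 60719377 to 60719834 at day 14 (7.72-fold) and 60719222 to 60719836 in PBS glomeruli (5.96-fold). ADR glomeruli had no peak there. Another site common to all 5 lists lay 147 kb from the broad peak, with 8.80-fold in PBS podocytes (60653659 to 60654050), 14.2-fold at day 9 (60653524 to 60654084), 5.01-fold at day 14 (60653660 to 60653952), 6.89-fold in PBS glomeruli (60653748 to 60653990) and 8.51-fold in ADR glomeruli (60653730 to 60653964). These 4 sites account for all 5 day 14 peaks. All 5 day 14 peaks also had a peak in PBS podocytes and at day 9, where 96.1% and 99.7% of the whole day 14 list did. In the other direction, 4 of the 14 PBS podocyte peaks (27% of that list) and 4 of the 32 day 9 peaks (20.5% of that list) had a day 14 peak.

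A further 3 sites had a peak in every list but day 14. The site near 60.73 Mb had 18.0-fold in PBS podocytes (60730883 to 60731675), 28.8-fold at day 9 (60730921 to 60731709), 17.0-fold in PBS glomeruli (60731026 to 60731634) and 5.98-fold in ADR glomeruli (60731215 to 60731479). The site near 60.70 Mb had 11.9-fold in PBS podocytes (60703775 to 60704304), 21.4-fold at day 9 (60703744 to 60704360), 7.60-fold in PBS glomeruli (60703901 to 60704139) and 6.48-fold in ADR glomeruli (60703905 to 60704140). At the last of these, near 60.71 Mb, the day 9 peak at 60708461 to 60709401 (16.4-fold, 84.7th percentile of its list) spanned peaks that did not overlap each other, at 60709026 to 60709341 in PBS glomeruli (4.02-fold) and 60708634 to 60708852 in ADR glomeruli (5.40-fold). The PBS podocyte peak there, at 60709030 to 60709300, had 4.52-fold enrichment and stood at the 23.2nd percentile of its list. The PBS glomerular peaks that ranked 4th and 5th at the locus by fold, at 60594503 to 60594825 (9.97-fold) and 60749969 to 60750240 (8.88-fold), had a peak in PBS and day 9 podocytes and none at day 14 or in ADR glomeruli.

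Of the 14 PBS podocyte peaks, 13 had a day 9 peak, where 87% of the whole PBS list did. The exception, at 60701836 to 60702125 (4.89-fold), also had a peak in PBS glomeruli (60701962 to 60702182, 6.89-fold) and none in any ADR list. It was the only region at the locus of this kind, and 1.92% of all merged regions were. Of the 32 day 9 peaks, 13 had a PBS podocyte peak and 19 did not (40.6% matched, 95% Wilson interval 25.5 to 57.7, which covers counting error only), where 64% of the whole day 9 list was matched. This is the contrast behind the choice of the locus. With both lists cut to equal length, 12 of 16 day 9 peaks at the locus were matched (75%), where 76.1% of the whole cut list was.

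Most of the 19 day 9 peaks without a PBS podocyte peak were weak by fold, as over the whole list. They had a median enrichment of 5.59-fold (4.35 to 10.5), against 14.2-fold (4.97 to 54.4) for the 13 with one, and 15 of the 19 lay under 6.82-fold, the day 9 list's median. In the whole day 9 list, 71.9% of the peaks without a PBS podocyte peak lay under that median, and 37.1% of those with one (2 of 13 at the locus). Their median width was 344 bp, the same as over all day 9 peaks of that kind, and that of the matched peaks at the locus was 561 bp. A −log10 q of 10 was reached by 4 of the 19 (21.1%), a lower share than the 43.1% of such peaks over the whole list. It was reached by 12 of the 13 matched peaks (92.3%, against 84.7% over the whole list).

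**Figure D3:**
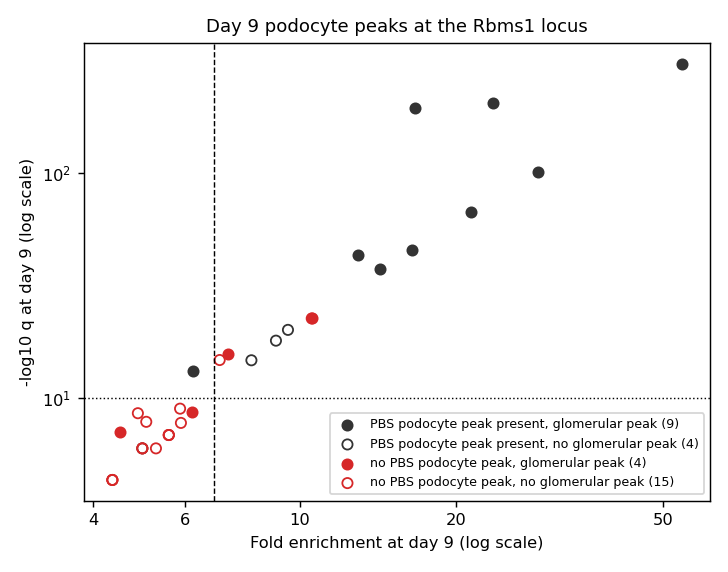
The 32 day 9 podocyte peaks at the Rbms1 locus by fold enrichment (x axis, log scale) and −log10 q (y axis, log scale), coloured by the presence of a PBS podocyte peak and filled where a glomerular list has a peak; tied peaks overlie each other. The dashed line is the median fold of the day 9 list (6.82) and the dotted line a −log10 q of 10; 15 of the 19 peaks without a PBS podocyte peak lie left of the dashed line.

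The strongest of these 19 lay on either side of the strongest site, at 60739281 to 60739978 and at 60763035 to 60763492, each with 10.5-fold enrichment. They were followed by 60761208 to 60761669 (7.26-fold), 60555372 to 60555715 (7.00-fold), which was the peak farthest toward the 3′ side, and 60753212 to 60753563 (6.20-fold). Many day 9 peaks lay close to the strongest site. In the 30 kb between 35 and 65 kb from the broad 5′ peak, a stretch marked out after its peaks were seen, podocytes had 4 peaks with PBS, 13 at day 9 and 1 at day 14, and glomeruli 5 with PBS and 4 with ADR. Neighbouring summits at the locus were a median of 4.93 kb apart at day 9 and 9.64 kb apart in PBS podocytes, against 16.1 and 24.2 kb over the whole lists.

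The glomerular lists, which played no part in the choice of the locus, did not show a higher number after ADR. In glomeruli the locus held 14 peaks with PBS and 10 with ADR, and the 60.7 to 60.8 Mb window 10 and 7. Of all 12174 windows, 13.9% had an ADR glomerular count at least 3 below the PBS count. The number of peaks in the whole ADR glomerular list was also the smaller, 16634 against 29082, and the locus held 5.28 times the average for its length in ADR glomeruli and 4.23 times in PBS glomeruli. Of the 10 ADR glomerular peaks, 7 had a PBS glomerular peak (82.6% of the whole list). Of the 14 PBS glomerular peaks, 6 had an ADR glomerular peak (46.5% of the whole list).

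The ADR glomerular peaks were also set against the podocyte lists. All 10 overlapped a day 9 podocyte peak (Wilson interval 72.2 to 100), where 80.1% of the whole ADR glomerular list did. A PBS podocyte peak was overlapped by 6 of the 10 (71.4% of the list). Both pieces of the broad 5′ peak are among the 10. The locus was chosen for its many day 9 peaks, which favours overlap with that list, so the share is a description only. In the other direction, 9 of the 32 day 9 peaks had an ADR glomerular peak (40.5% of the day 9 list) and 11 a PBS glomerular peak (67.3%).

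Most of the day 9 peaks without a PBS podocyte peak had no counterpart in glomeruli either. Of the 19, 4 had a peak in a glomerular list (21.1%, Wilson interval 8.51 to 43.3), against 40.6% of the day 9 peaks of that kind genome-wide, and 15 had no peak in any other list. Of the 13 with a PBS podocyte peak, 9 had a glomerular peak (88.4% genome-wide). Among all 32 day 9 peaks, 13 had a glomerular peak (40.6%, 25.5 to 57.7), against 71.2% of the whole day 9 list. The locus was selected for its surplus of day 9 peaks, and neighbouring peaks of 1 list are not independent, so these shares and intervals are a description and no test against the list.

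Merged over the 5 lists, the 75 peaks formed 35 regions, of which 15 held a day 9 peak alone, 3 held a peak in all 5 lists and 3 in all lists but day 14. Over the genome the shares of these kinds were 16.1%, 11.2% and 13.7%. Peaks in both day 9 podocytes and ADR glomeruli, with none in either PBS list, marked 2 regions (1.96% over the genome). At the first, the day 9 peak at 60739281 to 60739978 (10.5-fold) met an ADR glomerular peak at 60739559 to 60739819 (7.01-fold). At the other, the day 9 peak at 60761208 to 60761669 (7.26-fold) met one at 60761300 to 60761552 (6.70-fold). Both ADR glomerular peaks lay under their list's median of 7.26-fold. The ADR glomerular peak at 60708634 to 60708852 also overlapped a day 9 peak and no PBS peak. There the wide day 9 peak joined it to PBS peaks, so its merged region counts among those in all lists but day 14.

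**Figure D4:**
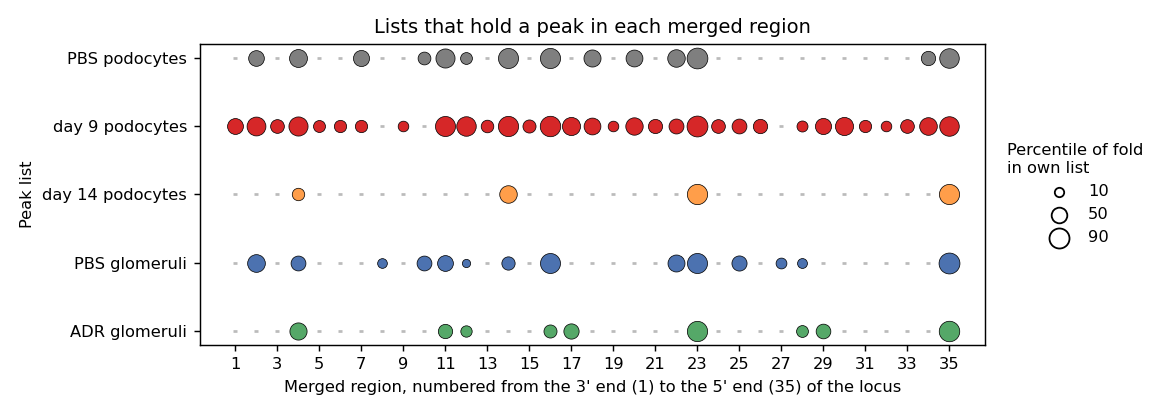
Lists (y axis) that hold a WT1 peak in each of the 35 merged regions of the Rbms1 locus (x axis, numbered from the 3′ to the 5′ end, not to scale). A circle marks a peak, its area grows with the percentile of its fold enrichment in its own list, and a dash marks no peak; regions 4, 23 and 35 have circles in all 5 rows, and 15 regions have one at day 9 alone.

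The bounds of the interval lay far from any peak on the 5′ side. Beyond the broad peak the next day 9 peak lay 95.8 kb away, at 60896501 to 60897394 (45.5-fold), and each other list had a peak at that site too. On the 3′ side the outermost day 9 peak inside (60555372 to 60555715) was 19.2 kb from the next one outside, at 60536193 to 60536596 (4.31-fold). Which exon or intron of Rbms1 each peak falls in was not determined, since no mm9 annotation was used here, and peaks at the family members Rbms2 and Rbms3 were not analysed here.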

How the data were processed

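The submitters' processing notes name Bowtie 0.12.7, MACS2 and the mm9 build. For the combining of libraries, the control and the cutoff, the sources used here give nothing. Deposited by the authors was 1 narrowPeak list per immunoprecipitation group, and the 2 glomerular input libraries have no list of their own. Fold enrichment, a ratio over background, and −log10 p and −log10 q are the authors' deposited values per peak and were used to rank and filter peaks within a list.

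Members were the peaks with a summit in the interval. An overlap of 1 bp or more counted as shared, and regions are unions of overlapping peaks. Intervals are 95% Wilson intervals. Distances are from the summit of the widest day 9 peak. Named peaks were the 5 strongest of each list, the 5 strongest day 9 peaks without a PBS podocyte peak, every day 14 peak and regions present after ADR in both tissues and absent from both PBS lists. Peaks named outside this rule, such as the site with PBS peaks alone and that near 60.71 Mb, were chosen after their values were seen. The locus, its members and the lists of comparisons were chosen with earlier results of these data known. Planned motif and exon annotation of peaks was not run, and motifs were searched in RefSeq upstream windows instead. Overlap counting was tested on simulated peaks with known shares. Tools were Python 3.11.15 with scipy 1.17.1, pandas 2.3.3, numpy 2.4.6 and matplotlib 3.10.9.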

Additional observations from a re-analysis of the deposited data

Results flagged for a closer look

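The number of peaks at the Rbms1 locus was below the PBS number in ADR glomeruli and day 14 podocytes and above it in day 9 podocytes. It was 0.714 times the PBS number in glomeruli (10 against 14), 2.29 times in podocytes at day 9 (32 against 14) and 0.357 times in podocytes at day 14 (5 against 14). Since a group has 1 list, whether the directions differ was not tested. The day 9 and day 14 ratios share the PBS podocyte list and led to the choice of the locus, and whole lists differed in length in the same directions.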

How the results depend on the processing

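No paired analysis was possible because only 1 list stands for each group, and for that reason no replicate could be left out. Of 76 alternative values, 52 stayed within 1.5 times the count or within the interval set for the share or median percentile, and 24 did not. The median percentiles were those of the locus peaks in each list, ranked by caller p-value in place of fold. They were 47.4 against 63.8 by fold in PBS podocytes, 33.4 against 44.2 at day 9 and 83.8 against 66.1 at day 14. In PBS glomeruli they were 37.3 against 45.0 and in ADR glomeruli 41.1 against 41.3. All are counted among the 52, but their intervals were Wilson intervals for a share of so few peaks. Such an interval is wide and does not measure the error of a median, so staying within it shows no stability. At a −log10 q of at least 10, the locus count was 16 at day 9 and 6 and 3 in PBS and ADR glomeruli, the 100 kb window count 11, 4 and 1, and 17 merged regions were left. With all lists cut to the shortest, the locus count was 4 and 5 in PBS and day 9 podocytes and 3 and 3 in PBS and ADR glomeruli, and the window count 3, 4, 2 and 1. With the day 9 list cut to the PBS podocyte length, an alternative chosen after the data were seen, day 9 counts were 16 and 11. Within the gene interval alone, day 14 had 3 peaks. That interval was cut at 60.80 Mb, which leaves out the broad 5′ peak, called as a pair of peaks at day 14. The share of day 9 peaks with a PBS podocyte peak was 62.5% at the stricter q (64.95% of the whole list) and 75% at equal length (76.1%), that with a day 14 peak 60% at equal length (77.4% of the whole list) and that with a glomerular peak 66.7% at equal length (81.4%). Of the day 9 peaks without a PBS podocyte peak, the share with a glomerular peak was 0 of 6 at the stricter q (0%, against 29.9% of the whole list) and 2 of 4 (50%, against 51.6%) at equal length. Lists are shorter by construction in all of these but the gene interval alone, which is a narrower stretch. Other overlap rules moved no share outside its interval. Read totals were not used here, so what depth limits was not tested.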

Other observations

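Several day 9 peaks at the Rbms1 locus had tied values. The same enrichment was shared by 3 peaks at 4.35-fold, 3 at 4.97-fold, 3 at 5.59-fold and 2 at 10.5-fold.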
